A study of Prunus persica with 84 samples.

Results

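PRUPE_1G255500 is the peach gene model known as CCD4, carotenoid cleavage dioxygenase 4, and it was followed here as 1 of the 26879 genes in a table of read counts from peach floral buds. It was chosen by its identifier, and the name comes from knowledge of the peach genome, since the table pairs this identifier with no name. The buds came from cut shoots of 2 peaches, KV021779, for which the titles use LP, and John Boy, for which they use JB. The shoots stood in water at 4 °C, with buds taken at 0, 100, 200, 400, 600, 800 and 1000 h, and then at 22 °C, with buds taken at 1, 4, 8, 12, 16 and 20 d, and in LP also at 24 and 28 d. Bloom began at 20 d in JB and at 28 d in the late genotype, which the treatment text writes LFP. This gave 28 groups of 3 libraries, 39 libraries from JB and 45 from LP. The study compares messenger RNA profiles of these genotypes, which differ in flowering time. All samples were whole floral buds, so fewer cells of a type and less RNA per cell cannot be told apart, and no shoots were kept without chilling, so cold and elapsed time cannot be told apart either.

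Carotenoid cleavage dioxygenases are plant enzymes that cut carotenoids, the yellow to red pigments of plastids, into smaller apocarotenoids. CCD4 enzymes sit in plastids and degrade carotenoids to colourless and volatile products, and in chrysanthemum a CCD4 gene keeps petals white by removing the carotenoids they make. In peach fruit, loss of CCD4 function gives yellow flesh, whereas white flesh carries a working copy. Related enzymes of the family start the synthesis of abscisic acid and of strigolactones, hormones that act in bud dormancy and branching.

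Library totals ran from 8021919 to 26346177 counts, and CCD4 had 26 to 813 counts per library, so every library held reads of it. Levels are given as counts scaled to a common library total (CPM), with totals scaled by TMM, a method that corrects for differences in library composition. In each group the spread between the 3 libraries, as a coefficient of variation, ran from 0.885% to 47.4% with a median of 9.71%. Counting error alone gives 4.08% to 17.4%. The profiles of JB 12 d replicate 3 and LP 28 d replicate 3 stood apart from the other libraries of their groups over all genes. Over all tested genes, JB 12 d replicate 3 correlated more with the JB 8 d mean (Pearson r = 0.981) than with its own group (0.969). LP 28 d replicate 3 correlated most with its own group (0.978). In both groups this library held the lowest CCD4 value of the 3. The floral identity of the buds could not be checked against marker genes, because the identifiers carry no names apart from those of the DAM genes.

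CCD4 was low in every group of the chilling course, 0 h included, and higher in nearly all warm groups. The lowest group mean was 3.59 ± 0.492 CPM (SD, n = 3) in JB at 0 h, and the highest was 51.4 ± 4.94 CPM in JB at 20 d. The 14 chilling means all lay at or below 8.88 CPM. Of the 14 warm means, 13 lay above that level, and JB at 1 d, with 7.88 ± 0.904 CPM, was the exception. Ranked by CPM within its own library, without correction for transcript length, CCD4 held places 14943 to 15489 of 26879 in JB at 0 h and places 4436 to 5339 in JB at 20 d. This rank does not depend on how totals are scaled.

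When the 28 groups were ordered by their means, most neighbours in the order were not separated. In 20 of the 27 neighbouring pairs the libraries of the groups overlapped, and in 7 they did not. The gaps lay between LP at 24 d and LP at 8 d, LP at 20 d and LP at 4 d, LP at 4 d and LP at 16 d, LP at 12 d and JB at 12 d, LP at 1 d and JB at 4 d, JB at 8 d and LP at 800 h, and LP at 600 h and LP at 100 h. The top 3 groups, JB at 20 d, LP at 28 d and LP at 24 d, overlapped each other, LP at 28 d only through its replicate 3. The other LP 28 d libraries, at 61.7 and 63.5 CPM, lay above every library of JB at 20 d and of LP at 24 d. The bottom of the order, from LP at 100 h down to JB at 0 h, had no gap, and it held 6 of the 7 JB chilling groups. JB at 1000 h was the JB chilling group above it.

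**Figure D1:**
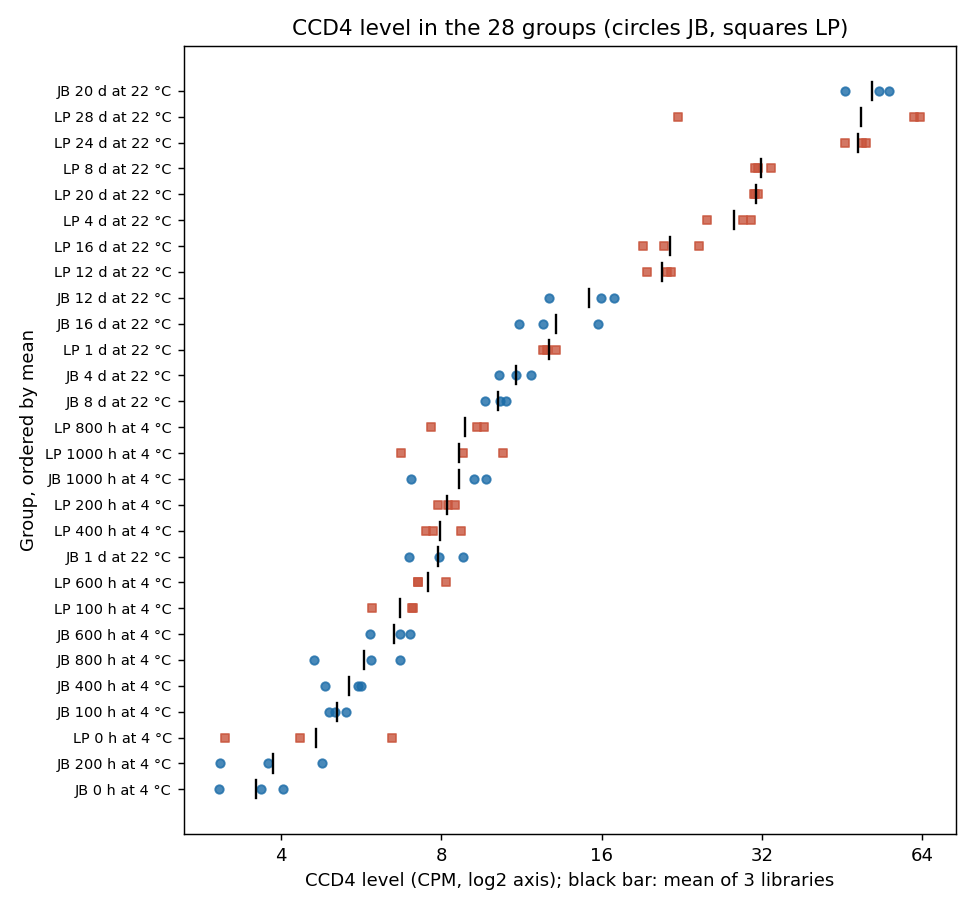
CCD4 level in CPM (x axis, log2 scale) in each of the 28 groups (y axis), ordered by the group mean, with points for the 3 libraries of a group and a black bar for their mean. The groups of the chilling course, 0 h included, fill the range up to a mean of 8.88 CPM. The highest means, of 48.5 to 51.4 CPM, belong to JB at 20 d and to LP at 24 and 28 d. LP 28 d replicate 3 lies far to the left of its group.

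During chilling CCD4 rose in both genotypes while staying at a low level. In JB the 3 libraries held 3.67, 3.07 and 4.04 CPM at 0 h and 9.70, 9.20 and 7.01 CPM at 1000 h, without overlap. In LP they held 4.35, 3.14 and 6.48 CPM at 0 h and 6.71, 10.4 and 8.79 CPM at 1000 h, also without overlap, though LP replicate 3 at 0 h lay close to LP replicate 1 at 1000 h. For times of the same genotype, the share of all genes without such overlap was not counted. The change from 0 to 1000 h was 1.26 ± 0.26 on the log2 scale in JB (SE), a 2.39-fold rise, with an adjusted p of 2.83e-05 by the quasi-likelihood test of edgeR. In LP it was 0.83 ± 0.23 (adjusted p = 0.00161), a 1.78-fold rise. Of all 21168 tested genes, 29.5% were called higher at 1000 h in JB and 27.4% in LP, so a call as such is common. The LP rise lost its call without replicate 2 of every group (0.53, adjusted p = 0.157). The test of the difference between these responses gave -0.43 ± 0.36 (adjusted p = 0.388, 95% interval -1.14 to 0.28), and 31.7% of genes passed that test in either direction. Without LP 0 h replicate 3 it was -0.091 (adjusted p = 0.924), the nearest to 0 of the fits that left out a single library, which reached -0.59.

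With all libraries fitted, no single step of the chilling course passed the test in either genotype. In JB the libraries held 5.07, 5.29 and 4.93 CPM at 100 h and 3.07, 4.77 and 3.78 CPM at 200 h. JB then held 5.65, 4.85 and 5.58 CPM at 400 h, 7.0, 5.87 and 6.68 CPM at 600 h, and 6.68, 5.90 and 4.63 CPM at 800 h. The JB values at 200 h overlapped those at 0 h, and all 3 JB values at 600 h lay above those at 0 h. None of the 6 steps between neighbouring chilling times passed the test in JB, with an SE of 0.22 to 0.28, nor in LP, with an SE of 0.21 to 0.24. These calls depend on the libraries fitted, including those of other groups, since the variability of CCD4 is estimated jointly over all groups. Without the libraries that stood apart, JB passed as a rise from 0 to 100 h (0.49, adjusted p = 0.0286), from 200 to 400 h (0.47, adjusted p = 0.0192) and from 800 to 1000 h (0.55, adjusted p = 0.0222), and LP from 0 to 100 h (0.45, adjusted p = 0.0172). Of all genes, 48.8%, 22.7%, 35.7%, 24.6%, 8.21% and 2.72% passed in either direction in the 6 JB steps, in order of time, and 47.2%, 9.96%, 11.4%, 4.05%, 5.03% and 5.49% in the LP steps. The last JB step, from 800 to 1000 h, was the largest for CCD4, at 0.56 ± 0.23 (adjusted p = 0.228), and 4.48% of genes had a more positive value in it. Compared with 0 h, JB passed the test at 600 h, by 0.84 ± 0.26 (adjusted p = 0.00373), against 28.1% of genes called higher, and lost that call without replicate 1 of every group (adjusted p = 0.0594). JB also passed at 800 h, by 0.70 ± 0.27 (adjusted p = 0.0216), against 28.9% of genes called higher. The 800 h call was lost without replicate 1 (adjusted p = 0.24) or replicate 2 (adjusted p = 0.16) of every group. At 100, 200 and 400 h the JB change was 0.49, 0.12 and 0.59 (adjusted p = 0.141, 0.749 and 0.0632), where 48.8%, 55.5% and 51.0% of genes passed in either direction. The JB change at 400 h did pass with DESeq2 (adjusted p = 0.0320), with only the groups compared (0.0147), without replicate 3 of every group (0.00852) and without the libraries that stood apart (0.00542). LP passed the test from 200 h on, where the change was 0.75 ± 0.23 (adjusted p = 0.00452), against 23.3% of genes called higher. LP at 100 h gave 0.45 ± 0.24 (adjusted p = 0.111), but 0.79 without LP 0 h replicate 3 (adjusted p = 0.0186) and 0.87 without replicate 3 of every group (adjusted p = 0.000328). These comparisons with 0 h were added after the data were seen, and the LP changes at 200, 400, 600 and 800 h each lost their call without replicate 1 or 2 of every group.

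LP libraries held more CCD4 than JB libraries over most of chilling. At 200 h LP had 8.25, 8.49 and 7.90 CPM, and each LP library lay above each JB library of that time. LP held 7.05, 7.08 and 5.92 CPM at 100 h, 7.72, 8.70 and 7.48 CPM at 400 h, 7.24, 7.24 and 8.17 CPM at 600 h, and 9.35, 9.64 and 7.66 CPM at 800 h. At these 5 times all LP libraries lay above all JB libraries, as they did for 23.2% to 28.3% of all tested genes at single times. At 0 and 1000 h the genotypes overlapped. In the mean over the 7 chilling times CCD4 was 0.47 ± 0.09 higher in LP (adjusted p = 3.19e-06, edgeR), a 1.38-fold difference, against 37.0% of genes called higher in LP. At single times the difference was largest at 200 h, with 1.06 ± 0.23 (adjusted p = 8.44e-05) against 25.4% of genes called higher, and 5.13% of tested genes differed more in that direction.

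At the other chilling times the differences were smaller, and 4 of them did not pass the test. CCD4 was 0.56 ± 0.22 higher in LP at 400 h (adjusted p = 0.0325) and 0.60 ± 0.23 higher at 800 h (adjusted p = 0.0284), where 22.5% and 20.3% of genes were called higher. The 400 h call was lost without any of the JB 400 h libraries or LP 400 h replicates 1 or 2 (0.49 to 0.61, adjusted p = 0.0531 to 0.112). The 800 h call was lost without JB 800 h replicates 2 or 3 or LP 800 h replicates 1 or 2 (0.49 to 0.60, adjusted p = 0.0549 to 0.115). At 0 h the difference was 0.43 ± 0.28 (adjusted p = 0.221), at 100 h 0.39 ± 0.23 (adjusted p = 0.185) and at 600 h 0.23 ± 0.21 (adjusted p = 0.405), where 42.9%, 41.6% and 45.7% of genes passed in either direction. The value at 0 h was 0.096 without LP 0 h replicate 3 (adjusted p = 0.866). At the end of chilling the means were 8.64 ± 1.43 CPM in JB and 8.65 ± 1.87 CPM in LP, with a difference of 0.01 ± 0.22 (adjusted p = 1, 95% interval -0.43 to 0.44), while 45.0% of genes passed in either direction. Its sign turned under several settings, such as -0.012 with DESeq2 size factors. So 3 of the 7 chilling times were called higher in LP and none lower.

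**Figure D2:**
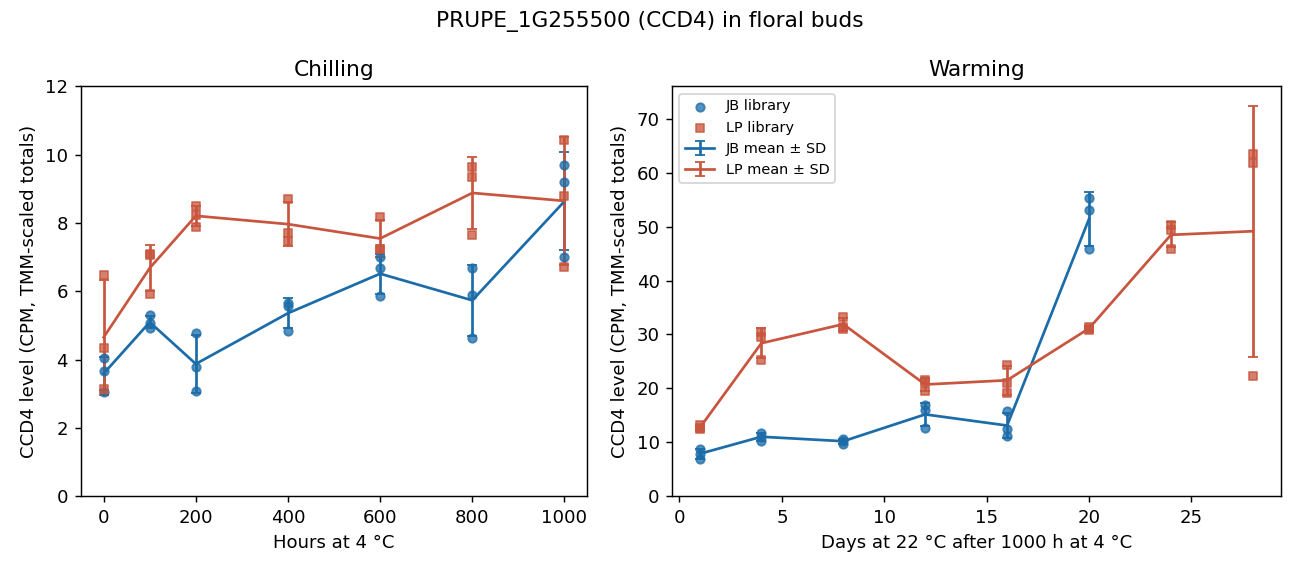
CCD4 level in CPM (y axes, linear and of different range) against hours at 4 °C (left) and days at 22 °C (right), with circles for JB libraries, squares for LP libraries, and lines with bars for the mean ± SD of 3 libraries. The genotypes meet at 8.64 and 8.65 CPM at 1000 h, LP then lies above JB from 1 to 16 d, and JB lies above LP at 20 d.

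At 22 °C CCD4 in JB changed most between 16 and 20 d, and its steps up to 8 d were smaller. The JB libraries held 6.96, 7.91 and 8.77 CPM at 1 d, 11.8, 11 and 10.3 CPM at 4 d, and 9.69, 10.3 and 10.6 CPM at 8 d. At 1 d they overlapped the values at 1000 h, while at 4 d all 3 lay above them. The change from 1000 h to 4 d did not pass the test (0.35 ± 0.21, adjusted p = 0.132), where 65.1% of genes passed in either direction. It passed with only the groups compared (adjusted p = 0.0446) and without the libraries that stood apart (adjusted p = 0.0223). The JB libraries held 15.9, 16.9 and 12.7 CPM at 12 d, 15.7, 12.4 and 11.2 CPM at 16 d, and 45.9, 55.3 and 53.1 CPM at 20 d. The values of 12 and 16 d overlapped, and those of 20 d lay far above every other JB library. From 16 to 20 d CCD4 rose by 1.97 ± 0.17 on the log2 scale (adjusted p = 9.08e-17), a 3.91-fold rise. In that step 28.8% of genes were called higher, and 2.56% rose more than CCD4.

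The rise from 8 to 12 d was the other JB step that passed the test. CCD4 rose by 0.58 ± 0.19 between these days (adjusted p = 0.0101), against 19.3% of genes called higher. The call was lost without JB 12 d replicate 2 (0.49, adjusted p = 0.0721), and without JB 12 d replicate 3, which stood apart, together with LP 28 d replicate 3 it was 0.72. From 12 to 16 d the change was -0.21 ± 0.19 (adjusted p = 0.324), which passed the test as a fall without these libraries (-0.34, adjusted p = 0.0295), in a step where 62.2% of genes passed in either direction with all libraries kept. The earlier JB steps were -0.13 ± 0.22 from 1000 h to 1 d (adjusted p = 0.634), 0.48 ± 0.21 from 1 to 4 d (adjusted p = 0.0610) and -0.11 ± 0.19 from 4 to 8 d (adjusted p = 0.736), where 61.4%, 34.2% and 25.7% of genes passed. The step from 1 to 4 d was called higher with DESeq2 (adjusted p = 0.037) and with only the groups compared (adjusted p = 0.00487). It was also called higher without replicate 3 of every group (adjusted p = 0.00255) and without the libraries that stood apart (adjusted p = 0.00523). Of the 12 steps between neighbouring JB times, 2 were called higher and none lower. Over the whole of warming, from 1000 h to 20 d, CCD4 rose 5.96-fold in JB, by 2.57 ± 0.18 (adjusted p = 7.26e-21), against 37.2% of genes called higher.

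In LP CCD4 rose within the first days at 22 °C, fell between 8 and 12 d, and rose again from 16 to 24 d. The LP libraries held 12.4, 12.6 and 13.1 CPM at 1 d, 25.2, 29.5 and 30.5 CPM at 4 d, and 33.3, 31.4 and 31.1 CPM at 8 d. All LP values at 1 d lay above those at 1000 h, and all at 4 d lay above those at 1 d. They then held 21.6, 21.2 and 19.4 CPM at 12 d, 21.0, 19.2 and 24.4 CPM at 16 d, and 31.1, 31.4 and 30.9 CPM at 20 d. The values of 8 d and 20 d overlapped, and those of 12 and 16 d lay below both. At 24 d they held 50.3, 49.3 and 45.9 CPM, all above every earlier LP library. At 28 d they held 61.7, 63.5 and 22.3 CPM, so replicate 3 lay below every library of 24 d and replicates 1 and 2 above them.

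The largest LP step was that from 1 to 4 d, a rise of 1.16 ± 0.17 on the log2 scale (adjusted p = 6.23e-08, edgeR) or 2.23-fold. In that step 14.7% of genes were called higher and 5.21% rose more. The step from 1000 h to 1 d was 0.56 ± 0.20 (adjusted p = 0.011) against 30.9% of genes called higher. Its call was lost without LP 1000 h replicate 1 (0.42, adjusted p = 0.09) and without replicate 1 of every group (0.48, adjusted p = 0.121). From 8 to 12 d CCD4 fell by 0.62 ± 0.16 (adjusted p = 0.0102), in a step where few genes moved, with 2.61% of genes called lower and 4.62% falling more. That call was lost without LP 8 d replicate 1 (-0.59, adjusted p = 0.0506) or LP 12 d replicate 3 (-0.58, adjusted p = 0.0627). It was also lost without replicate 1 (-0.61, adjusted p = 0.208) or replicate 2 (-0.65, adjusted p = 0.155) of every group. CCD4 rose by 0.53 ± 0.16 from 16 to 20 d (adjusted p = 0.00848) and by 0.64 ± 0.15 from 20 to 24 d (adjusted p = 0.000948), against 16.9% and 13% of genes called higher. The former call was lost without LP 16 d replicate 2 (0.45, adjusted p = 0.0553). From 4 to 8 d and from 12 to 16 d the change was 0.17 ± 0.16 (adjusted p = 0.496) and 0.06 ± 0.17 (adjusted p = 0.856), where 24.0% and 32.2% of genes passed in either direction. Of the 14 LP steps, 4 were called higher and 1 lower.

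The last LP step rests on a single library. From 24 to 28 d the change was 0.03 ± 0.15 (adjusted p = 0.901) with all libraries, while 57.2% of genes passed in either direction. Without LP 28 d replicate 3 it was 0.37 (adjusted p = 0.00459), and without this library and JB 12 d replicate 3 it was 0.41 (adjusted p = 0.000755). Without LP 24 d replicate 3, LP 28 d replicate 1 or LP 28 d replicate 2 its sign turned (-0.012, -0.17 and -0.20). The LP mean at 28 d was 49.2 ± 23.3 CPM with the library and 62.6 CPM over the other libraries. From 1000 h to 28 d CCD4 rose by 2.51 ± 0.18 (adjusted p = 1.22e-20), a 5.70-fold rise, against 37.8% of genes called higher. Without LP 28 d replicate 3 that rise was 2.85. By 20 d the rise in LP was 1.84 ± 0.18 (adjusted p = 4.01e-14), a 3.59-fold rise, against 34.2% of genes called higher.

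On each shared warm day the genotypes differed with all libraries fitted, with LP higher on the first 5 days and JB higher on the last. All LP libraries lay above all JB libraries at 1, 4, 8, 12 and 16 d, and all lay below them at 20 d. Across all tested genes, 7.38% had LP wholly above JB on at least 5 of the 6 shared warm days. On single days that held for 23.2% to 33.4% of genes from 1 to 16 d, and 37.2% had LP wholly below JB at 20 d. The excess of CCD4 in LP was 0.69 ± 0.20 at 1 d (adjusted p = 0.00317), 1.36 ± 0.18 at 4 d (adjusted p = 5.29e-10) and 1.64 ± 0.17 at 8 d (adjusted p = 1.05e-12). At 8 d that was a 3.12-fold difference, and 2.68% of genes differed more in that direction. The shares of genes called higher in LP on these days were 18.7%, 25.8% and 18.6%. At 1 d the call did not hold when replicate 1 (0.63, adjusted p = 0.0749) or replicate 2 (0.70, adjusted p = 0.0516) was left out of all groups.

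The difference was smaller at 12 and 16 d and of the opposite sign at 20 d. The excess in LP was 0.44 ± 0.18 at 12 d (adjusted p = 0.0301) and 0.71 ± 0.18 at 16 d (adjusted p = 0.000296), where 29.1% and 31.6% of genes were called higher. The 12 d call was lost without JB 12 d replicate 3 (0.34, adjusted p = 0.138), LP 12 d replicate 1 (0.42, adjusted p = 0.0744) or LP 12 d replicate 2 (0.43, adjusted p = 0.0689), and with DESeq2 (0.39, adjusted p = 0.0651), and was kept in the fit without both libraries that stood apart. At 20 d CCD4 was lower in LP by -0.72 ± 0.15 (adjusted p = 2.94e-05), with means of 31.1 ± 0.276 CPM in LP and 51.4 ± 4.94 CPM in JB, and 34.9% of genes were called lower. The mean over the 6 shared warm days, 0.69 ± 0.07 higher in LP (adjusted p = 1.99e-13, 36.2% of genes called higher), therefore averages days of opposite sign.

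**Figure D3:**
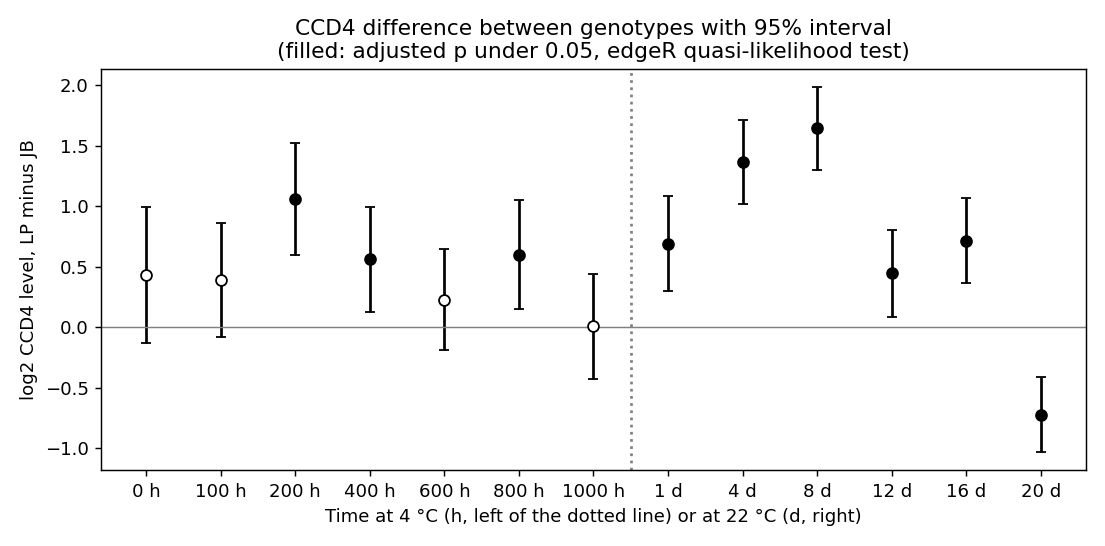
Difference of the log2 CCD4 level between genotypes, LP minus JB (y axis), at each of the 13 shared times (x axis), with bars for the 95% interval and filled points for an adjusted p under 0.05 in edgeR's quasi-likelihood test. It is largest at 8 d, at 1.64, near 0 at 1000 h, and at 20 d it is -0.72.

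Taken from each genotype's own level at 1000 h, the warm responses differed first one way and then the other, as the same-day levels did. The genotypes differed by 0.0052 at 1000 h, so these response differences nearly repeat the same-day differences and are no separate result. These tests share the 1000 h libraries, and all but the one at 20 d were added after the data were seen. The level at 4 d was 3.28-fold that at 1000 h in LP (1.71 ± 0.18, adjusted p = 5.22e-13, 34.2% of genes called higher) and 1.28-fold in JB (0.35 ± 0.21, adjusted p = 0.132). At 8 d it was 3.68-fold in LP (1.88 ± 0.18, adjusted p = 1.79e-14, 33.3% called higher) and 1.18-fold in JB (0.24 ± 0.20, adjusted p = 0.300). The response was more positive in LP by 1.36 ± 0.28 at 4 d (adjusted p = 3.56e-05) and by 1.64 ± 0.28 at 8 d (adjusted p = 2.14e-06), against 23.3% and 16.4% of genes called more positive. At 1 d the difference was 0.69 ± 0.29 (adjusted p = 0.0569). It passed with DESeq2 (0.70, adjusted p = 0.0357), with only the groups compared (0.74, adjusted p = 0.00617), without replicate 3 of every group (0.91, adjusted p = 0.00138) and without the libraries that stood apart (0.72, adjusted p = 0.00255). At 12 d it was 0.44 ± 0.28 (adjusted p = 0.202) and at 16 d 0.71 ± 0.28 (adjusted p = 0.0347, 20.1% of genes called more positive). At 20 d the LP response was the smaller, by -0.73 ± 0.27 (adjusted p = 0.0156, 27.6% of genes called more negative). That call was lost without JB 1000 h replicate 3 (-0.60, adjusted p = 0.0677) or LP 1000 h replicate 2 (-0.59, adjusted p = 0.0746).

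Single steps showed where the courses parted. From 8 to 12 d CCD4 rose in JB and fell in LP, and the difference between these steps was -1.20 ± 0.25 (adjusted p = 0.000103, 13.7% of genes called more negative), and -1.33 without the libraries that stood apart. From 16 to 20 d the LP step was smaller by -1.44 ± 0.23 (adjusted p = 4.29e-07, 19.0% called more negative). The step from 1 to 4 d was larger in LP by 0.67 ± 0.27, which did not pass the test (adjusted p = 0.0569). It passed with only the groups compared (0.69, adjusted p = 0.000623) and without the libraries that stood apart (0.69, adjusted p = 0.00198). Read on straight lines between group means, LP reached the JB level of 16 d, 13.1 CPM, after 1.07 d, and JB reached the LP level of 8 d, 31.9 CPM, after 18.0 d. These days are a description without error.

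At the start of bloom CCD4 did not pass the test between genotypes, and that comparison rests on LP 28 d replicate 3. LP at 28 d minus JB at 20 d gave -0.06 ± 0.15 (adjusted p = 0.755, 95% interval -0.36 to 0.24), where 59.8% of genes passed in either direction. Without LP 28 d replicate 3 CCD4 was 0.28 higher in LP (adjusted p = 0.0284), and without this library and JB 12 d replicate 3 it was 0.33 higher (adjusted p = 0.00635), and 27.7% of genes were called higher with all libraries kept. LP at 24 d minus JB at 20 d gave -0.08 ± 0.15 (adjusted p = 0.619, 95% interval -0.38 to 0.21, 72.5% of genes passing in either direction), at a mean of 48.5 CPM in LP 4 d before its start of bloom.

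CCD4 was also compared between pairs of days that lie 12 d apart, a pairing by stage that was proposed from earlier results of these data and was not tested here. It differs from the stated start of bloom, by which LP at 28 d would be paired with JB at 20 d and not 16 d. The log2 level in LP at 28 d was 1.91 ± 0.17 higher than JB at 16 d (adjusted p = 6.19e-16), a 3.76-fold difference, against 17.2% of genes called higher, and 1.95% of genes differed more. LP at 20 d was 1.61 ± 0.17 higher than JB at 8 d (adjusted p = 1.99e-12), a 3.04-fold difference, against 23.3% of genes called higher, with 4.85% differing more. Both kept their call without any single library of the compared groups. Without LP 28 d replicate 3 the first difference was 2.25.

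The genes whose pattern was most like that of CCD4 were sought over the 28 group means of log2 CPM, among 15131 genes with a mean of at least 5 CPM. All points share the change from 4 to 22 °C and the library totals, so these correlations are a description. PRUPE_1G542400 had the highest Pearson correlation (r = 0.914) and PRUPE_1G465600 the next (r = 0.910), and 5 genes reached 0.9. The median over all genes was -0.055. No names are paired with them in the files. PRUPE_1G542400 held 7.37 ± 1.18 CPM at 1000 h and 37.3 ± 3.16 CPM at 20 d in JB. In LP it held 9.64 ± 1.89 CPM at 1000 h, 23.6 ± 1.76 CPM at 8 d against 12.9 ± 1.32 CPM in JB, 17.4 ± 0.0975 CPM at 20 d and 27.2 ± 2.75 CPM at 24 d. Its mean, like that of CCD4, stood higher in LP than in JB at 4, 8 and 12 d and lower at 20 d. Unlike that of CCD4, it stood lower in LP at 1 d (10.2 ± 0.249 CPM against 14.8 ± 2.19 CPM in JB). The same held at 16 d (22.4 ± 4.80 CPM against 24.1 ± 0.498 CPM in JB).

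PRUPE_1G465600 moved over a wider range than CCD4. In JB PRUPE_1G465600 held 1.12 ± 0.689 CPM at 1000 h, 4.92 ± 0.319 CPM at 1 d and 5.23 ± 0.801 CPM at 4 d. It then held 1.2 ± 0.462 CPM at 8 d and 56.4 ± 6.22 CPM at 20 d. PRUPE_1G465600 held 1.03 ± 0.535 CPM at 1000 h, 23.8 ± 2.66 CPM at 8 d, 12.0 ± 1.94 CPM at 20 d and 39.5 ± 5.46 CPM at 28 d in LP. The early LP maximum at 8 d was thus shared with CCD4, while at 20 d the mean of PRUPE_1G465600 lay well below that at 8 d and the CCD4 libraries of these days overlapped (means of 31.1 and 31.9 CPM). The choice depended on the measure, since 25 of the 50 genes most like CCD4 by Pearson's r were among the 50 by Spearman's rho. PRUPE_1G542400 ranked 3 by Spearman's rho and PRUPE_1G465600 ranked 98. Over the JB groups alone 7 of the 50 were shared, and over the LP groups alone 15. PRUPE_1G542400 ranked 52 in JB alone and 3 in LP alone, and PRUPE_1G465600 ranked 113 and 78.

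The genes least like CCD4 were high before or during chilling and under 1 CPM at the start of bloom. PRUPE_8G128500 had the lowest correlation (r = -0.927), and PRUPE_4G146400 followed (r = -0.918), with 8 genes at or below -0.9. PRUPE_8G128500 held 64.2 ± 5.69 CPM at 0 h, 8.17 ± 0.951 CPM at 1000 h and 0.126 ± 0.0462 CPM at 20 d in JB, and 35.8 ± 0.517, 9.08 ± 1.64 and 2.16 ± 0.378 CPM at the same times in LP. PRUPE_4G146400 held 88.2 ± 7.22 CPM at 1000 h and 0.0298 ± 0.0516 CPM at 20 d in JB, against 24.5 ± 1.41 and 0.901 ± 0.279 CPM in LP.

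**Figure D4:**
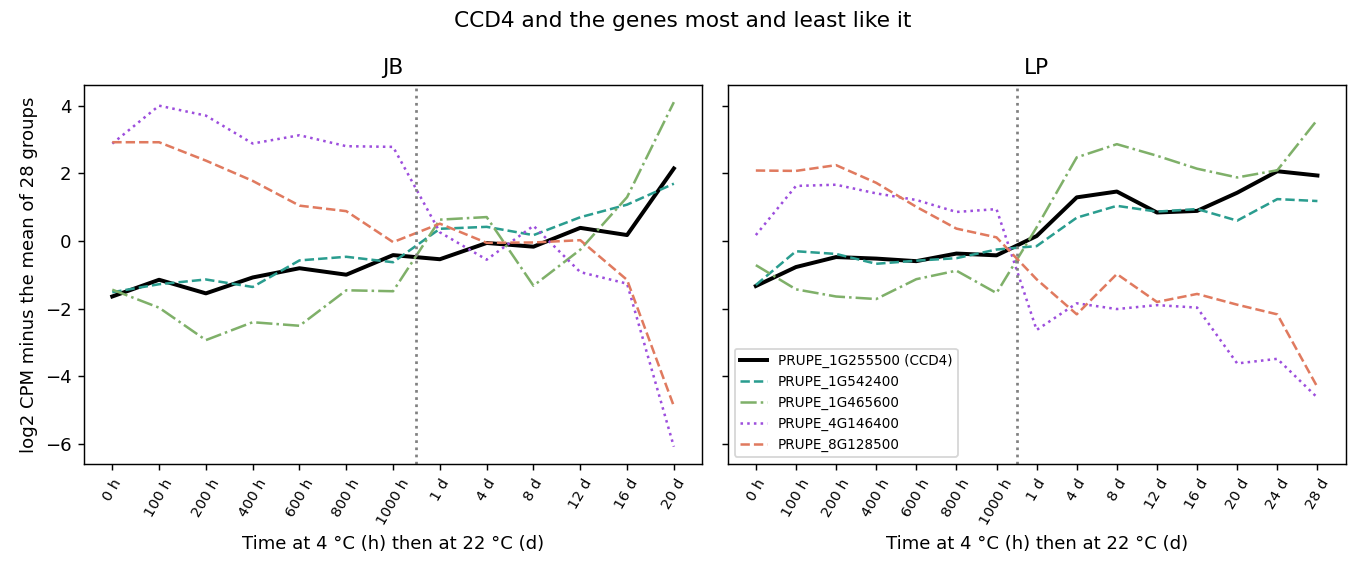
Group means of log2 CPM, each gene centred on its mean over the 28 groups (y axis), against the sampling times (x axis) in JB (left) and LP (right), for CCD4, the 2 genes with the highest correlation with it and the 2 with the lowest. CCD4 and PRUPE_1G465600 both have an early maximum at 8 d in LP, and in JB PRUPE_1G465600 has a lower one at 4 d. The genes of lowest correlation fall to their lowest values at the last day of each genotype.

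The identifiers next to that of CCD4 were called lower in LP more often than higher. Whether they differ in this from genes in general was not tested. Peach identifiers of this form are numbered along a chromosome, and the 10 before and the 10 after PRUPE_1G255500 were read from the same fit, 19 of them with enough counts to be tested. Over the shared warm days 4 of the 19 were called higher in LP and 10 lower, against 36.2% and 32.5% of all tested genes. Over chilling 5 were called higher and 9 lower, against 37.0% and 32.3%. The 5 became 2 without replicate 1 of every group and 3 without replicate 2, without replicate 3 or without the libraries that stood apart. Their median difference was -0.16 over the warm days and -0.062 over chilling, and that of all tested genes was 0.003 and 0.013. The highest warm difference among them was 0.21, and CCD4 stood at 0.69. PRUPE_1G255100 was the only called neighbour at least 4-fold apart over the warm days, lower in LP by -2.38 ± 0.10 (adjusted p = 1.11e-33), and PRUPE_1G255700 was the only one over chilling, lower by -2.64 ± 0.18 (adjusted p = 3.34e-22) at a mean of 1.28 CPM. PRUPE_1G254500 was not called, with a fitted difference of -3.70 that rests on groups without counts. Among the 14 neighbours above 5 CPM, the correlation with CCD4 over the 28 group means ran from -0.715 to 0.703.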

How the data were processed

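Messenger RNA of floral buds was sequenced in 84 libraries, 3 in each of 28 groups, which were taken from the sample titles. Per the labels, a Norgen kit served for RNA extraction and TruSeq Stranded mRNA for library construction. Per the submitters' processing notes, the reads passed through tools that include edgeR, Trimmomatic, FastQC 0.11.9 and STAR 2.6.0. Gene values in the deposited table are raw counts. Not given in the sources used here are the strand setting, the annotation, the build of the genome and the counting tool. Without a known strand setting, reads of CCD4 and of any overlapping gene cannot be told apart.

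Low counts were removed by filterByExpr of edgeR, with the groups given, leaving 21168 of 26879 genes (947 had no read), and library totals were scaled by TMM. A single model with a mean for each group was fitted to all libraries (glmQLFit, glmQLFTest) in edgeR 4.0.16 with limma 3.58.1 under R 4.3.3. Every ± beside a log2 difference is an SE, and every adjusted p is from that test, corrected by Benjamini-Hochberg across the tested genes of a comparison, with calls under 0.05. The model estimates the variability of a gene jointly over all groups, so these values do not reflect the compared groups alone. LP at 28 d, with the widest CCD4 spread (47.4%), enters every CCD4 test of the full fit. Without the libraries that stood apart, the JB change from 0 to 100 h stayed at 0.49. Its adjusted p fell from 0.141 to 0.0286, though neither library belongs to that comparison. The prior count for log2 CPM was 2. The code was tested on simulated data.

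Whether the 3 samples of a group came from different trees is not stated in the labels, and p-values reflect variation among the samples at hand, and part or all of it may be technical. No replicate pair agreed within sampling noise (chi-square per degree of freedom from 1.39 to 23.3 over 84 pairs). The gene, the lists and the comparisons were chosen with earlier results of these data known. Likeness named the 2 highest and 2 lowest correlations, and neighbours were named when 4-fold apart. Lists of carotenoid genes and floral markers fixed by description were not analysed here, since the reference table pairs no such identifiers. Alternatives were DESeq2 1.42.0, edgeR with the size factors of DESeq2, all genes with a read, a fit of the compared groups alone, a block for the replicate number, and leaving out replicate numbers or libraries, the last with the dispersions of the full fit. Comparisons added after the data were seen were not fitted without single libraries, except where they equal a planned step.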

Additional observations from a re-analysis of the deposited data

Results flagged for a closer look

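In 6 comparisons the response of CCD4 itself differed between the genotypes by the test of the difference in edgeR. From 1000 h of chilling, the response in LP was more positive by 1.36 at 4 d, 1.64 at 8 d and 0.71 at 16 d on the log2 scale, and smaller by -0.73 at 20 d. These response values nearly repeat the same-day differences, since the genotypes differed by 0.0052 at 1000 h. Between neighbouring days, the LP step was smaller than the JB step by -1.20 from 8 to 12 d and by -1.44 from 16 to 20 d. Of these, the response calls at 16 and 20 d were each lost in some fits. Only the 20 d response was also fitted without single libraries, so the others were tested less. The 20 d call was lost without JB 1000 h replicate 3 or LP 1000 h replicate 2, and the 16 d call was lost in 2 of the 3 fits that left out a replicate number (adjusted p up to 0.203 among the 3). LP 28 d replicate 3 held 22.3 CPM against 61.7 and 63.5 CPM in its group, and single outlying libraries were not tested in groups of 3.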

How the results depend on the processing

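Of 228 fits of the 10 main comparisons under alternatives, 220 kept direction and side of the threshold. The 228 include 45 and 39 leave-out fits of the means over chilling and over the shared warm days, which rest on many libraries. Over all 79 comparisons, 982 of 1095 fits kept both. LP at 28 d minus JB at 20 d turned to 0.014 in the fit of only these groups (adjusted p = 0.973) and to 0.33 without the libraries that stood apart, and leaving out replicates gave -0.30 to 0.32. Leaving out replicates gave 0.53 to 1.17 for the LP rise over chilling and -1.0 to -0.58 for the difference of warm responses at 20 d. The difference at 1000 h, near 0, turned with DESeq2 size factors (-0.012), no low-count filter (-0.0050), without the libraries that stood apart (-0.026), with only the groups compared (-0.037) and with DESeq2 (-0.013), and ran from -0.16 to 0.20 when replicates were left out. Uncalled steps that changed sign when replicates were left out ranged from -0.35 to 0.061 (JB, 1000 h to 1 d), and in LP from -0.18 to 0.017 (400 to 600 h), -0.18 to 0.14 (800 to 1000 h), -0.10 to 0.15 (12 to 16 d) and -0.20 to 0.37 (24 to 28 d). The change from 0 to 200 h in JB, 0.12, ran from -0.15 to 0.25. The cause was not tested. With raw library totals 7 of the 28 group means moved by over 1 SD, and with DESeq2 size factors none did. Replicate numbers were not used to pair samples. JB and LP libraries of the same number and time deviated together in 1 of 39 pairs (r over 0.1). That check cannot show whether same-numbered samples of a genotype shared a tree across times. With the replicate number as a block all 79 comparisons kept their call (mean over chilling 0.47, over shared warm days 0.69). Depth limits the chilling values most, where libraries held as few as 26 counts of CCD4.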
